A study of Mus musculus with 4 samples.

Results

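Of the 52636 genes in the deposited single-cell table, 32 genes of protein folding in the endoplasmic reticulum (ER) and of the unfolded protein response were followed, found by symbol from a named list. Each of the 32 matched 1 row of the table, and each had UMIs in all 4 libraries. They are 3 transcription factors of the response, 10 ER chaperones and co-chaperones, 3 protein disulfide isomerases, 4 genes of ER-associated degradation, 9 genes of the translocon, the signal peptidase and the translocon-associated protein (TRAP) complex, and 3 genes activated by ATF4 and CHOP.

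The cells were luminal epithelial cells sorted from mammary glands of C57BL/6N mice aged 6 weeks. The WT pool was ErbB3+/+;MMTV-Cre and the mutant pool was ErbB3V943R/V943R;MMTV-Cre, each from 3 mice, and each pool was sequenced as 2 droplet libraries, labelled A and B here, and nothing pairs a library of one pool with one of the other. Cre was thus present in both pools, under a mammary tumor virus promoter that is active in the mammary epithelium, and the mutant receptor ERBB3 replaces the normal one only where Cre has acted. The V943R change itself is not read by counts taken at the 3′ end of mRNA, so the genotype labels were not checked on it. Since each genotype is represented by 1 pool, biological replicates are absent. The libraries of a pool show technical spread only, no test between genotypes was made, and the intervals below cover counting error only.

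The ER is where secreted and membrane proteins are translocated, trimmed, glycosylated, folded and, when folding fails, handed over for degradation. Misfolded proteins in the ER activate the sensors IRE1, PERK and ATF6. IRE1 splices the *Xbp1* mRNA into its active form, PERK favours translation of ATF4, which in turn raises CHOP, and ATF6 is cleaved into a transcription factor. XBP1 and ATF6 are known to raise chaperones and degradation genes, and ATF4 to raise genes of amino acid metabolism. The counts used here do not separate spliced from unspliced *Xbp1* mRNA. The mammary epithelium is a secretory tissue, and milk secretion falls to the descendants of its luminal progenitors.

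The 4 libraries held 6849 to 9627 cells and 30019745 to 38009351 UMIs (unique molecular identifiers, which count captured mRNA molecules). The class and cluster of each cell were taken as the authors deposited them. Clusters 1 and 2 are luminal progenitors (LP), cluster 3 is luminal intermediate (LI), clusters 4 to 11 are mature luminal (ML), and clusters 12 and 13 are rare cells. Markers of LP cells summed to between 3214 and 6540 counts per 1000000 UMIs (CPM) in the LP clusters and to at most 108 CPM in any ML cluster, while markers of ML cells summed to between 6035 and 9815 CPM in ML clusters and to at most 1359 CPM in LP clusters. LI cells carried both, and 49.4% of them had a doublet score in the top 6% of their library, against at most 9.58% in every other cluster. Basal markers stayed at or under 65.1 CPM and immune markers at or under 38.6 CPM in clusters 1 to 11. LP cells were the shallower class, with a median of 2018 UMIs per cell in WT and 2067 in the mutant, against 3508 and 4069.5 in ML cells. Of the cell barcodes, 511 occurred in more than 1 library.

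Levels are given as CPM of a library's summed UMIs, which are per UMI and not per length, so that they compare a gene with itself and not with another gene. Differences are given as log2 ratios with exact conditional binomial intervals at 95%. A gene is called past the fold when its summed levels differed by 1.5 times or more, its higher side had at least 50 UMIs, and both libraries of the higher side lay above both libraries of the lower side.

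Across the 11 luminal clusters the 32 genes varied by a median of 2.17 times between the highest and the lowest cluster in WT. The span was 3.15 times for *Sdf2l1*, a partner of the chaperone BiP, and 1.18 times for *Ssr4*, a subunit of the TRAP complex. *Chac1*, which encodes an enzyme that breaks down glutathione, was at the floor of detection with 127 UMIs in all cells, or 0.937 CPM. In WT, 10 of the 32 genes were highest in cluster 2, 6 in cluster 10 and 5 in cluster 6, and 13 were lowest in cluster 1 and 7 in cluster 11. Of the 9688 genes with at least 1000 UMIs in these clusters, which include 31 of the 32, 22.6% were highest in cluster 2, 5.47% in cluster 10 and 8.02% in cluster 6, and 13.8% were lowest in cluster 1 and 4.67% in cluster 11. The median span of these genes was also 2.17 times. The highest cluster was the same in both genotypes for 19 of the 32 (59.4%), against 59.5% of these genes, so that neither the span nor this share set the 32 genes apart.

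**Figure D1:**
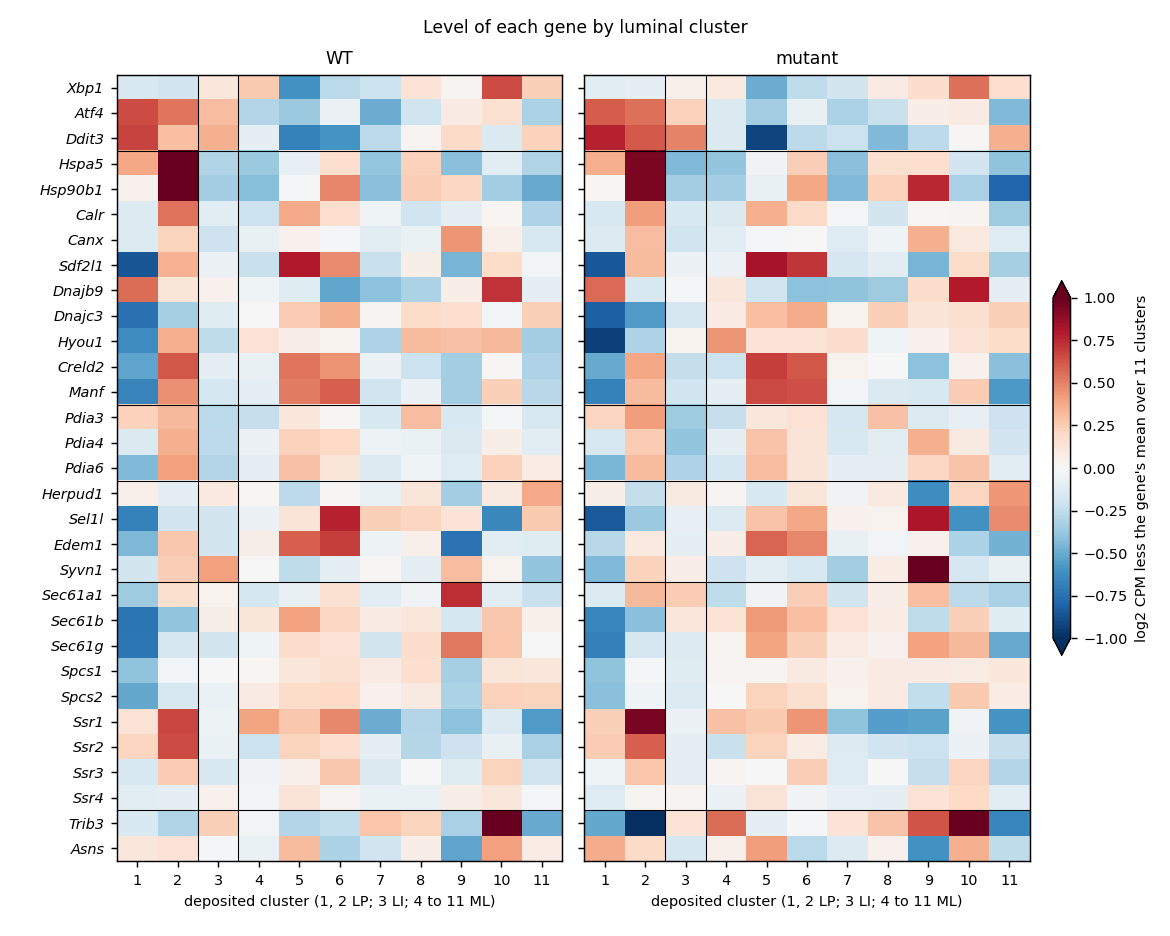
Heatmap of the genes by luminal cluster in WT and in the mutant, without *Chac1*. Color is the log2 CPM less the gene's mean over the 11 clusters, capped at 1 in either direction, and the columns of clusters 2 and 10 stand out as high for chaperones and for *Xbp1*, *Dnajb9* and *Trib3*, respectively.

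Pairs of the genes were ranked by how alike they were ordered over the 11 clusters, taking the lower Spearman's rho of WT and the mutant. The rho between *Creld2* and *Manf*, both ER proteins known to rise with ER stress, was 0.88 in WT and 0.98 in the mutant. For *Sdf2l1* and *Manf* it was 0.93 and 0.89. The same rho was 0.84 and 0.86 for *Hspa5*, which encodes BiP, the main ER chaperone, and *Pdia3*, a disulfide isomerase that works on glycoproteins. For the translocon subunit gene *Sec61b* and the signal peptidase subunit gene *Spcs2* it was 0.75 and 0.79. These pairs come from the top of the ranking, and other pairs were ordered oppositely in both genotypes. For *Ddit3* and *Sec61b* the rho was −0.86 in WT and −0.58 in the mutant. For *Atf4* and *Dnajc3* it was −0.71 and −0.69, and for *Xbp1* and *Ssr2* −0.65 and −0.59. The clusters share libraries and differ in depth, and these values describe the clusters only.

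The comparison of LP with ML cells asks how the resident progenitors differ from the hormone-sensing mature cells. In WT, LP cells had more *Atf4*, *Ddit3* and *Hspa5* mRNA, and ML cells had more mRNA of the translocon subunits *Sec61b* and *Sec61g*, the co-chaperone *Dnajc3* and the degradation adaptor *Sel1l*. All 32 genes reached the minimum of UMIs in WT. Higher in LP and past the fold were 3 of them, against 20.2% of all 15320 genes compared, and lower and past it were 5, against 16% of all genes. In the mutant, 3 of the 31 that reached the minimum were higher, against 22.1% of 14937 genes, and 7 were lower, against 15.5%. Neither count of higher genes came up to the share of all genes, and the count of lower genes in WT was near it. The genes had a median log2 ratio of −0.13 in WT and −0.10 in the mutant, against 0.16 and 0.20 over all genes.

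*Atf4*, the transcription factor translated when PERK is active, stood at 173 and 171 CPM in the LP cells of WT libraries A and B and at 95 and 98.3 CPM in the ML cells, a log2 ratio of 0.83 (0.75 to 0.91). In the mutant it stood at 155 and 158 against 89.7 and 94.3 CPM, a log2 ratio of 0.76 (0.68 to 0.85). Both LP libraries were above both ML libraries in each genotype, as the rule for the fold requires. *Ddit3*, which encodes CHOP, was at 26.5 and 21.9 CPM in LP and at 14.8 and 14.2 CPM in ML of WT (0.73, 0.50 to 0.95), and the log2 ratio in the mutant was 0.95. *Hspa5* was at 330 and 306 CPM in LP and at 192 and 183 CPM in ML of WT (0.76, 0.70 to 0.82). In the mutant the *Hspa5* libraries held 289 and 250 against 154 and 183 CPM (0.66). The targets of ATF4 and CHOP among the 32 differed from each other. *Trib3*, a pseudokinase, was at 7.68 and 10.7 CPM in LP and at 12 and 13.2 CPM in ML of WT and was past the fold in the mutant, at 9.62 and 7.61 against 18.5 and 16.7 CPM (−1.04). *Asns*, asparagine synthetase, was at 32.7 and 29.0 CPM in LP and at 29.5 and 29.2 CPM in ML of WT (0.07), where the libraries overlapped. In the mutant it was above in both LP libraries, at 32.1 and 31.5 against 25.0 and 26.9 CPM (0.29, 0.10 to 0.48), short of the fold and at −0.03 with TMM factors, a scaling that sets the bulk of genes level.

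The chaperones other than *Hspa5* fell on both sides. *Hsp90b1*, the ER form of the HSP90 chaperone, was higher in LP of WT by a log2 ratio of 0.52 and *Dnajb9*, a co-chaperone of BiP, by 0.47, both short of the fold. *Dnajc3*, a co-chaperone that also holds back PERK, was at 127 and 126 CPM in LP and at 214 and 215 CPM in ML of WT (−0.76, −0.85 to −0.67), and at 97.7 and 108 against 192 and 201 CPM in the mutant (−0.93). The libraries of each class thus lay close together and far from the other class. *Sdf2l1* was lower in LP by −0.57 in WT and by −0.63 in the mutant, past the fold in the mutant only, and the difference between these ratios was not tested. *Hyou1*, a large HSP70-like chaperone, rested on 85 UMIs in LP of WT and 60 in LP of the mutant, and was past the fold in the mutant (−0.93). The disulfide isomerases *Pdia3*, *Pdia4* and *Pdia6* had log2 ratios of 0.29, −0.02 and −0.24 in WT.

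**Figure D2:**
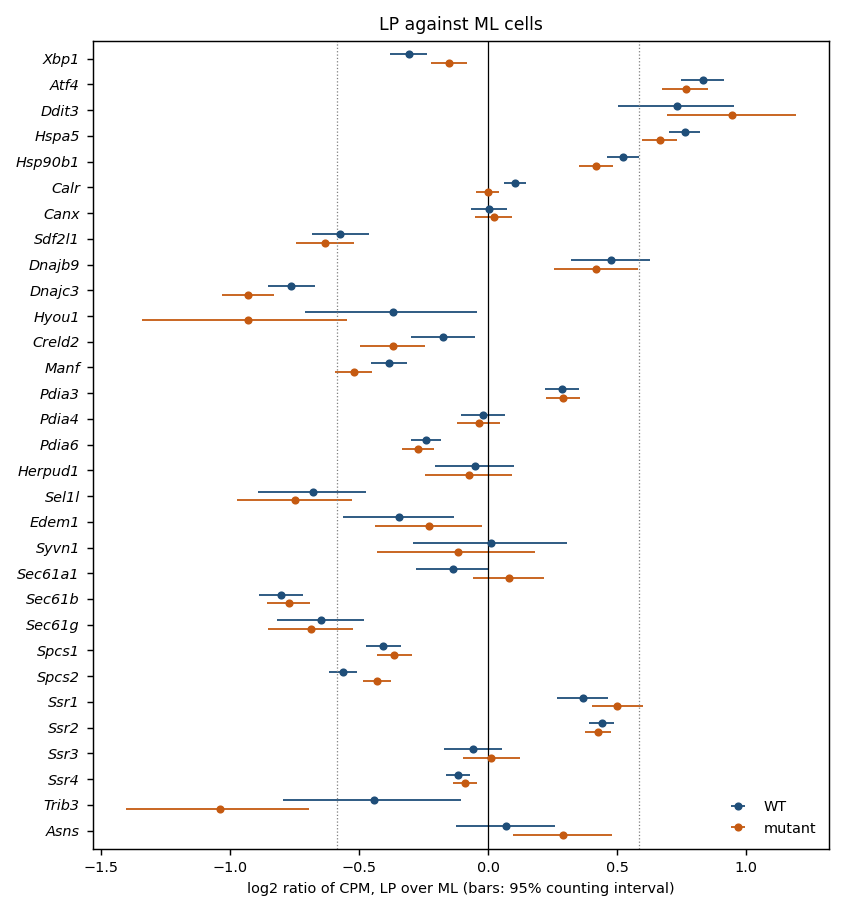
Log2 ratio of each gene's CPM, LP over ML, in WT and in the mutant, with 95% counting intervals, grouped by role and without *Chac1*. Dotted lines mark a fold of 1.5, and *Atf4*, *Ddit3* and *Hspa5* lie beyond the upper line in both genotypes.

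Among translocon genes, *Sec61b* was at 146 and 136 CPM in LP and at 254 and 237 CPM in ML of WT (−0.80, −0.89 to −0.72), and at 153 and 154 against 268 and 257 CPM in the mutant. *Sec61g* was at 43.4 and 30.6 CPM in LP and at 61.8 and 53.4 CPM in ML of WT (−0.65), while *Sec61a1*, which encodes the channel itself, differed by −0.14. The 3 subunits of the same channel thus had unequal ratios. *Sel1l*, which links the ligase SYVN1 to its substrates, was at 24.3 and 24.5 CPM in LP and at 37.6 and 40.5 CPM in ML of WT (−0.68), and *Syvn1* itself differed by 0.01. *Chac1* was also past the fold in WT, on 4 UMIs in LP and 53 in ML, with an interval that spans 0 (−2.92 to 0.45). The TRAP genes *Ssr1* and *Ssr2* were higher in LP of WT by 0.37 and 0.44 and the signal peptidase genes *Spcs1* and *Spcs2* lower, by −0.41 and −0.56.

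After each cell was thinned to 1000 UMIs, 23.8% of LP cells and 16.2% of ML cells of WT had a UMI of *Hspa5*, where the unthinned shares were 44.3% in both. For *Atf4* the thinned shares were 17.2% and 9.01%, and for *Sec61b* 11.9% and 20.2%. The order of the thinned shares was that of the CPM for all of these. The ER genes are used by all cells, so no cell type that lacks them was at hand to give a background share.

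The scaling mattered for the number of genes past the fold. TMM factors moved the median of all genes by −0.28 in WT and −0.32 in the mutant, and with them 0 of the 32 genes were higher in WT and 13 lower, and 1 was higher and 12 lower in the mutant. With the same factors 13.3% of all genes were higher and 24.1% lower in WT, and 13.7% and 24.6% in the mutant. *Atf4*, *Ddit3* and *Hspa5* then stood at 0.55, 0.45 and 0.48 in WT, while *Calr*, *Canx*, *Syvn1* and *Asns* turned from slightly above 0 to below it in WT. Proliferating markers were higher in LP for 4 of 4 genes, and genes known to respond to tissue dissociation summed to 24555 and 25561 CPM in LP and to 17494 and 18249 CPM in ML of WT. Of the 5 basal markers 2 were higher in LP of WT and past the fold and 3 in the mutant, with a sum of 40.9 and 49.3 against 15.4 and 17.4 CPM in WT. Of the 6 immune markers 1 was higher in each genotype, *Cd74*, at 14.4 and 6.02 against 1.69 and 2.83 CPM in WT, and of the 4 fibroblast markers 1 was lower in each, *Dcn*, at 2.48 and 0.892 against 14.3 and 12.9 CPM in WT. Their part in the result was not tested. Without clusters 2, 5 and 6, where proliferating markers were highest, a setting chosen after seeing the data, 2 of the 32 genes were higher in LP of WT and 8 lower, against 19.95% and 16.7% of all genes, and *Hspa5* was at 0.58.

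Other genes of the same pathways were followed on lists of their own, to be read against the same 20.2% of all genes higher and 16% lower in WT. Of 12 sensors and regulators, 1 was higher in LP of WT and 3 were lower. *Ern1*, which encodes IRE1, was at 3.47 and 4.01 CPM in LP and at 13.5 and 13.2 CPM in ML (−1.83), and *Ppp1r15a*, which reverses the translational arrest, was higher in LP (0.82). *Wfs1*, an ER membrane protein, was lower by −1.18. Of 14 further chaperones and oxidoreductases, 1 was higher (*Mesd*, a chaperone of LRP receptors, 0.79) and 2 were lower, among them *Pdia5* (−0.96). Of 10 further degradation genes, 3 were higher, with *Derl3* at 60 UMIs in LP and 78 in ML (2.36) and *Ube2j1* at 1.09, and 1 was lower (*Selenos*, −0.65). Of 17 genes of targeting, translocation and N-glycosylation, 0 were higher and 2 were lower (*Srp14*, −0.77, and *Dad1*, −0.68). The 15 further targets of ATF4 split evenly, with 5 higher and 5 lower. The highest log2 ratio of this list was 5.70 in WT, in a gene not named here, and 7.22 in the mutant. *Cebpb* (2.54), the amino acid carrier chain *Slc3a2* (373 and 377 against 132 and 134 CPM) and the serine synthesis gene *Psat1* (1.82) were among the higher, and *Nupr1* (−1.97), *Ddit4* (−1.45) and *Phgdh* (−1.53), another gene of serine synthesis, among the lower. In the mutant the higher and lower counts of these lists were 2 and 3, 1 and 2, 2 and 2, 0 and 2, and 5 and 6, against 22.1% and 15.5% of all genes. With so few genes a list, several of these counts lay near those shares.

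LI cells lay between the classes for several of the genes, with *Atf4* at 130 and 146 CPM and *Dnajc3* at 185 and 176 CPM in WT. *Hspa5*, at 170 and 166 CPM, was below both classes there, and *Sec61b*, at 242 and 216 CPM, overlapped the ML libraries. The high doublet scores of this cluster apply to these values.

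The following comparisons between clusters were chosen after seeing the data. In both classes the clusters with proliferating markers had higher *Sdf2l1*, *Creld2* and *Manf* than the other cells of the class. Over all 11 clusters, their rho with the proliferating marker *Mki67* was only 0.31, 0.33 and 0.36 in WT. In the mutant it was 0.38, 0.31 and 0.29. Among the 32 genes this rho ran from −0.74 for *Xbp1* to 0.81 for *Hsp90b1* in WT. In the mutant it ran from −0.61 for *Xbp1* to 0.75 for *Sec61a1*. *Sdf2l1* was highest in cluster 5 of both genotypes, where *Mki67* stood at 60.4 CPM in WT, against 168 CPM in cluster 6. Proliferating markers summed to 1390 and 1469 CPM in cluster 2 of WT, against 86.9 and 88.4 CPM in cluster 1, the other LP cluster. Cells of cluster 2 were deeper, with a median of 3490 UMIs against 1827.5 in WT and 3774 against 1878 in the mutant. Doublet scores in the top 6% of the library were held by 9.58% of its cells, against 2.80% in cluster 1. The part of depth and doublets in the values below was not tested. Of the 31 genes with the minimum in WT, 8 were higher in cluster 2 and past the fold, against 8.38% of 10018 genes, and 0 were lower, against 10.9% of all genes. In the mutant 6 of 30 were higher, against 8.2% of 10252 genes, and 2 were lower, against 11.3%. Taken as means over cells the mutant count was 10 higher, against 10.4% of all genes. With no minimum of UMIs it was 9, against 4.71%. The genes' median log2 ratio was 0.42 in WT and 0.40 in the mutant, against 0.03 and 0.01 over all genes. Of the 10 chaperones, 6 were past the fold upward in WT and 0 downward, and 4 and 1 in the mutant.

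*Sdf2l1* was at 159 and 146 CPM in cluster 2 and at 65.4 and 67.0 CPM in cluster 1 of WT (1.20, 0.99 to 1.42), and *Manf* at 388 and 350 against 176 and 163 CPM (1.13, 0.99 to 1.26). *Hsp90b1* was at 483 and 464 against 221 and 247 CPM (1.01, 0.89 to 1.13). The libraries of the clusters did not overlap for any of these, as the rule for the fold requires, and the mutant gave 1.17, 0.99 and 0.93. *Hspa5* was at 497 and 439 CPM in cluster 2 and at 274 and 269 CPM in cluster 1 of WT (0.79), and at 371 and 346 against 264 and 221 CPM in the mutant (0.57), where it was short of the fold. *Creld2* (1.15), the disulfide isomerase *Pdia6* (0.85), *Edem1* (0.72), which picks out misfolded glycoproteins, and the lectin chaperone *Calr* (0.68) were the others past the fold in WT. *Ssr1* was past it in the mutant (0.71). Without mutant library B the mutant count was 4 higher and 1 lower, against 8.16% and 13.2% of all genes. It then held neither *Creld2* nor *Ssr1*. The transcription factors did not share the direction, with *Xbp1* at −0.04, *Atf4* at −0.11 and *Ddit3* at −0.37 in WT. *Dnajb9* was lower in cluster 2 of both genotypes, by −0.44 in WT and by −0.73 in the mutant, and past the fold in the mutant along with *Trib3*, which rested on 10 UMIs in cluster 2 and 64 in cluster 1. With TMM factors, which moved the median of all genes by −0.10 in WT, 7 of the 32 were higher and 0 lower there, against 6.45% and 14.1% of all genes.

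**Figure D3:**
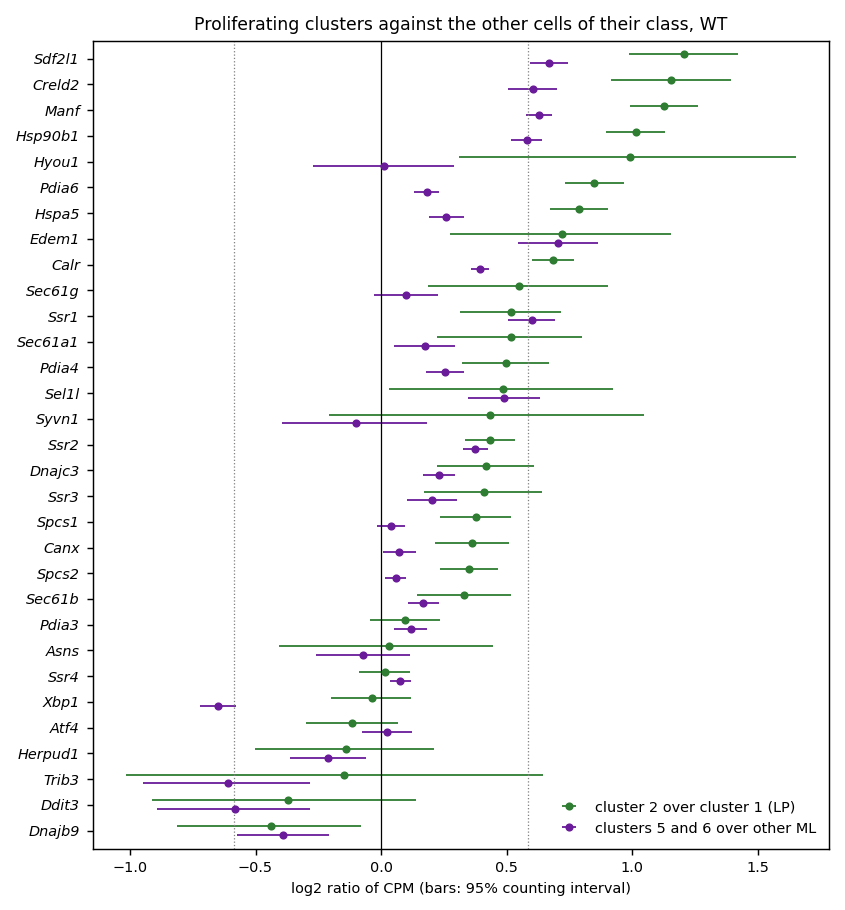
Log2 ratio of each gene's CPM in the WT clusters with proliferating markers over the other cells of the class, without *Chac1*. Bars are 95% counting intervals. The comparisons are cluster 2 over cluster 1 for LP, and clusters 5 and 6 over the other ML cells. *Sdf2l1*, *Creld2* and *Manf* lie to the right of the upper dotted line, a fold of 1.5, in both. *Xbp1* lies near 0 in LP and to the left in ML.

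Clusters 5 and 6 are the ML clusters with proliferating markers. Of the 31 genes with the minimum in WT, 5 were higher there than in the other ML cells, against 11.5% of 14468 genes, and 2 were lower, against 9.45%. In the mutant 4 of 31 were higher, against 10.7% of 13920 genes, and 0 were lower, against 7.72%. *Sdf2l1* was at 181 and 189 against 116 and 117 CPM in WT (0.67), *Manf* at 396 and 398 against 256 and 257 CPM (0.63) and *Edem1* at 44.0 and 43.9 against 26.9 and 27.1 CPM (0.70). *Creld2* (0.60) and *Ssr1* (0.60) were the others. *Sdf2l1*, *Manf*, *Edem1* and *Creld2* were also the ones past the fold in cluster 2 of WT, with ratios that were larger there. Of the 10 chaperones 3 were past the fold upward in each genotype, and the lowest ratio among them was −0.39 in WT. *Xbp1* went the other way, at 194 and 170 CPM in clusters 5 and 6 and at 277 and 291 CPM in the other ML cells of WT (−0.65, −0.72 to −0.58), and at 180 and 192 against 258 and 263 CPM in the mutant (−0.49), short of the fold. *Trib3* was lower by −0.61 in WT. TMM factors moved the median of all genes by −0.13 in WT and −0.12 in the mutant, and the counts became 0 higher and 3 lower in WT and 1 higher and 2 lower in the mutant, against 8.69% and 13.6% of all genes in WT and, for the mutant, 8.15% and 11.3%. *Sdf2l1* then stood at 0.54 and *Manf* at 0.50 in WT.

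Of the 15 further targets of ATF4, 5 were higher in clusters 5 and 6 and 1 was lower in each genotype. Of all genes, 11.5% were higher and 9.45% lower in WT, and 10.7% and 7.72% in the mutant. The median log2 ratio of the list was −0.11 in WT and −0.26 in the mutant, with 8 and 9 genes below 0. The 5 higher targets were *Psat1* at 39.7 and 35.4 against 8.34 and 7.15 CPM in WT (2.28), *Phgdh*, also of serine synthesis, at 1.46, the one-carbon genes *Mthfd2* at 1.91 and *Shmt2* at 0.67, and *Aars*, which charges alanine tRNA, at 1.14. *Nupr1*, a stress protein, was the lower one (−1.53). Of the 12 sensors and regulators, 0 were higher and 2 lower in WT. In cluster 2 against cluster 1 of WT, *Psat1* (1.84) and *Aars* (1.16) were the 2 higher ones of the 15, and 3 were lower. Of all genes 8.38% were higher and 10.9% lower there. The peptidyl-prolyl isomerase *Fkbp2* (0.99) and *Dnajb11* (0.62), a co-chaperone of BiP, were higher among the 14 further chaperones. In the same comparison, 0 of the 12 sensors and regulators were higher and 1 was lower. Of the 10 further degradation genes, 0 were higher and 2 lower, and of the 17 genes of targeting, translocation and N-glycosylation, 1 and 0. The dissociation genes summed to less in the proliferating clusters, 16981 and 16873 CPM in cluster 2 against 27082 and 27977 CPM in cluster 1 of WT. Markers of basal cells and of the classes also moved in cluster 2. Of the 5 basal markers 1 was lower and past the fold in WT. Their sum was 30.7 and 34.85 against 44.3 and 53.3 CPM in WT, and 10.8 and 34.0 against 65.1 and 53.0 CPM in the mutant. Of the 5 LP markers 4 were lower and past the fold in each genotype, with a sum of 3303 and 3214 against 6114 and 6540 CPM in WT, and of the 5 ML markers 1 was higher and past it in WT and 2 in the mutant, with a sum of 978 and 1242 against 849 and 837 CPM in WT. In clusters 5 and 6, 1 ML marker was higher (*Cited1*, 0.98 in WT) and 1 lower (*Prlr*, −1.05), 1 LP marker was higher and 1 lower, and 2 basal markers and *Dcn* of the fibroblast markers were lower, all past the fold and with the same counts in the mutant. The part of these genes in the differences was not tested.

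The promoters of the genes were searched for the ER stress response element (ERSE), the sequence CCAAT, 9 bases of any kind, and CCACG, which ATF6 binds together with NF-Y. RefSeq promoters of GRCm38.p6, from 250 bases before to 50 after the start of transcription, were at hand for 28 of the 32 genes and not for *Manf*, *Hyou1*, *Sec61a1* and *Ssr2*. On either strand, ERSE was found in 8 of the 28, and in 0.137% of the 27025 genes with a promoter. The windows below run 5′ to 3′ on the strand of the gene, with the fixed bases of the motif in capitals and 5 bases on each side. They are shown because 5 of these genes were past the fold in cluster 2 of WT, and because their spacing can be compared. A motif on the opposite strand reads CGTGG, 9 bases, ATTGG.
Hspa5, chr2:34772020-34772048, + strand: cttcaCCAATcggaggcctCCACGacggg
Hsp90b1, chr10:86705633-86705661, − strand: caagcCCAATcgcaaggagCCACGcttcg
Hsp90b1, chr10:86705528-86705556, − strand: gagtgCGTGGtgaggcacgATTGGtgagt
Calr, chr8:84847070-84847098, − strand: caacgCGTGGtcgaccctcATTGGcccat
Canx, chr11:50325795-50325823, − strand: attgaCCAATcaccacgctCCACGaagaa
Dnajc3, chr14:118937822-118937850, + strand: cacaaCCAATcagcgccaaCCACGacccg
Creld2, chr15:88819515-88819543, + strand: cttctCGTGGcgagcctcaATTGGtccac
Pdia6, chr12:17266486-17266514, + strand: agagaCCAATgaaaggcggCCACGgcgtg
Syvn1, chr19:6046527-6046555, + strand: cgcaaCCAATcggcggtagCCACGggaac

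The motif of *Hspa5* lay 65 to 47 bases before the start of transcription, and that of *Syvn1* was the nearest to the start, at 44 to 26 bases before it. A match is a description and not a binding site. The 8 genes with ERSE had log2 ratios of 0.36 to 1.15 in cluster 2 against cluster 1 of WT, with a median of 0.74 and all 8 above 0. The 20 matched genes without it had a median of 0.23, with 14 above 0. With the motif and without it, the medians were 0.62 and 0.28 in cluster 2 of the mutant, 0.25 and 0.07 in clusters 5 and 6 of WT and 0.28 and 0.07 in those of the mutant, and 0.01 and −0.21 in LP against ML of WT. The medians were −0.06 and −0.12 in LP against ML of the mutant and −0.03 and −0.07 for the mutant against WT in ML outside cluster 11. In the remaining comparisons the genes with the motif had the lower median. It was 0.07 against 0.12 in cluster 10 of WT and −0.03 against 0.21 in that of the mutant, −0.24 against −0.12 in cluster 11 of WT, and −0.10 against 0.02, −0.12 against −0.09 and −0.14 against −0.12 for the mutant against WT in LP, LI and cluster 11. No test was made of these differences. Of the genes with ERSE, *Hspa5*, *Hsp90b1*, *Calr*, *Canx*, *Dnajc3* and *Creld2* are chaperones or co-chaperones. That group had a median of 0.89 in cluster 2 against cluster 1 of WT. Motif and role thus overlap, and their parts were not tested. Genes without the motif were also past the fold, as *Sdf2l1* and *Edem1* were.

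A shorter relative, ERSE-II, the sequence ATTGG, any base and CCACG, was found in *Herpud1* only, whose protein sits in the ER membrane and serves degradation, and in 0.0444% of all genes. The C/EBP-ATF response element, searched as TGATG, any base and AA, was found in *Herpud1*, *Trib3*, *Chac1* and *Asns*, that is in all 3 of the ATF4 and CHOP targets, and in 4.51% of all genes. The sequence TGACG followed by TGG, which XBP1 binds, was found in 0 of the 28 and in 0.714% of all genes. The letters of ERSE-II in *Herpud1* and of the ATF4 element in *Herpud1*, *Chac1* and *Asns* are shown so that they can be compared with the ERSE windows, here with the whole motif in capitals, its free base included.
Herpud1, ERSE-II, chr8:94386372-94386392, + strand: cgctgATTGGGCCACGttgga
Herpud1, ATF4 element, chr8:94386312-94386329, + strand: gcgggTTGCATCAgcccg
Chac1, ATF4 element, chr2:119351044-119351061, + strand: tgccgTTGCATCActcct
Asns, ATF4 element, chr6:7693220-7693237, − strand: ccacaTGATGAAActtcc

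*Herpud1*, with both motifs, was at 41.0 and 53.6 CPM in cluster 1 and at 38.6 and 48.2 CPM in cluster 2 of WT, and the libraries overlapped. *Asns* had a log2 ratio of 0.03 in the same comparison.

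Cluster 10, an ML cluster of 2696 WT and 1869 mutant cells, had higher *Xbp1*, *Dnajb9* and *Trib3* and lower *Sel1l* than the other ML cells in both genotypes. Its proliferating markers were low, at 12 and 13.6 CPM in WT. Past the fold in WT were also the ML markers *Cited1* (−2.00) and *Areg* (0.62), the LP marker *Elf5* (1.34), *Cd74* of the immune markers (−0.81), *Sdc1* of the plasma cell markers (−0.69) and *Dcn* (−0.63). In the mutant these were *Cited1* (−2.05), *Elf5* (0.93), *Acta2* of the basal markers (0.70) and *Dcn*, there higher (0.92). The part of these markers in the values below was not tested. Of the 31 genes with the minimum, 3 were higher there than in the other ML cells of WT, against 2.19% of 14546 genes, and 1 was lower, against 16.1%. The counts were the same in the mutant, against 1.89% of 14143 genes and 15.7%, and they were for these same genes. The genes' median log2 ratio was 0.11 in WT and 0.10 in the mutant, against −0.17 and −0.16 over all genes, and TMM factors, which moved the median of all genes by 0.13 and 0.12, turned none of these 4 genes. *Xbp1* was at 374 and 383 CPM in cluster 10 and at 237 and 244 CPM in the other ML cells of WT (0.65, 0.60 to 0.71), and at 341 and 354 against 221 and 226 CPM in the mutant (0.64). *Dnajb9* was at 53.4 and 65.0 against 28.4 and 32.6 CPM in WT (0.96, 0.82 to 1.09) and at 50 and 64.9 against 25.5 and 30.8 CPM in the mutant (1.03). *Trib3* was at 23.7 and 21.8 against 9.29 and 11.2 CPM in WT (1.14, 0.91 to 1.37), and at 28.9 and 25.5 against 16.3 and 14.8 CPM in the mutant (0.81). For all 3 genes no library of cluster 10 came down to the level of a library of the other ML cells of its genotype, as the rule for the fold requires.

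*Sel1l* was lower in cluster 10, at 21.7 and 24.0 against 41.3 and 44.2 CPM in WT (−0.90) and at 24.2 and 22.4 against 39.1 and 38.9 CPM in the mutant (−0.75). Among the chaperones and co-chaperones, *Dnajb9* was past the fold, as given above. *Hspa5* at 0.05, *Hsp90b1* at −0.21 and *Calr* at 0.09 were near the other ML cells in WT, and *Ddit3* was at −0.01. *Atf4* and *Asns* were both at 0.45, short of the fold. From the other lists, *Ern1* was at 20.5 and 18.2 against 11.9 and 12 CPM in WT (0.69), *Selenos*, a selenoprotein of ER-associated degradation, at 273 and 281 against 178 and 166 CPM (0.69), and *Wfs1* and *Nupr1* at 0.67 and 0.62. In the mutant *Selenos* (0.61) and *Nupr1* (0.60) were past the fold. *Phgdh* and *Psat1* were lower in both genotypes, by −0.91 and −0.61 in WT. Without clusters 5 and 6 among the other ML cells, the ratio of *Xbp1* was 0.56 in both genotypes, below the fold of 1.5 on the log2 scale.

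**Figure D4:**
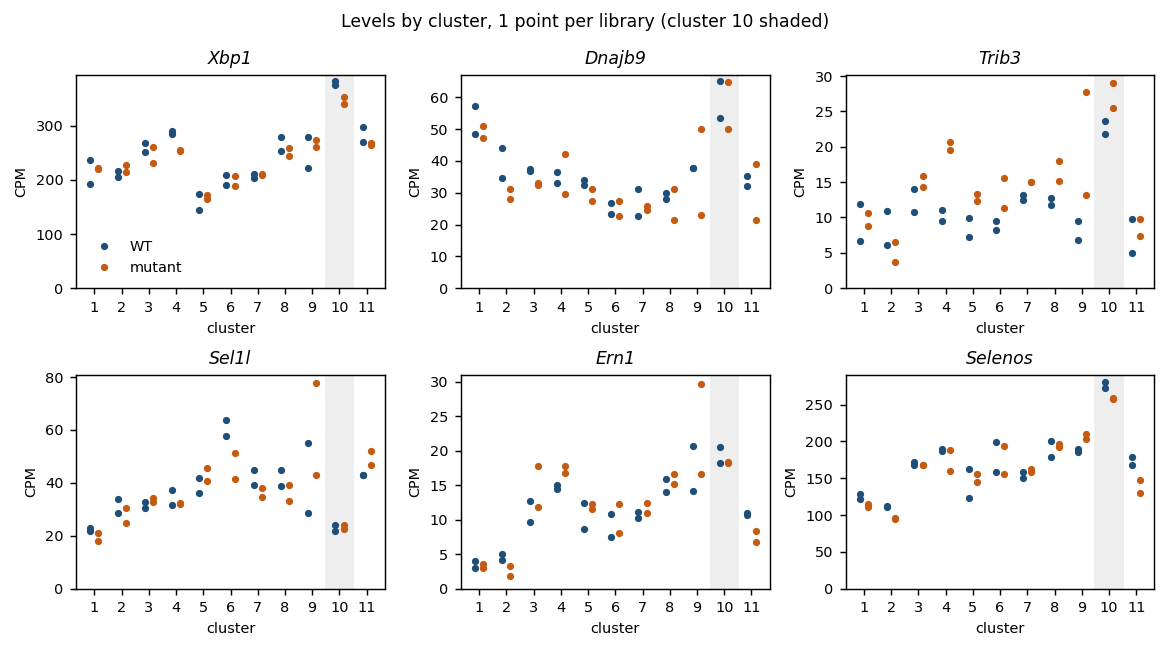
CPM of *Xbp1*, *Dnajb9*, *Trib3*, *Sel1l*, *Ern1* and *Selenos* in each of the 11 luminal clusters, with 1 point per library of WT and of the mutant and each vertical axis starting at 0. *Xbp1* reached 378.5 CPM in cluster 10 of WT and was lowest in cluster 5 at 158.5 CPM, and *Sel1l* was lower in cluster 10 than in the other ML clusters of WT.

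Cluster 11 is an ML cluster of 2863 cells in WT and of 670 in the mutant. In WT, 0 of the 31 genes with the minimum were higher there than in the other ML cells, against 2.37% of 14537 genes, and 1 was lower, against 9.36%. That gene was *Trib3*, at 4.92 and 9.73 against 13.4 and 13.8 CPM (−0.87, −1.25 to −0.51), which without WT library A was at −0.51 and no longer past the fold. Without WT library B it was past the fold together with *Ssr1*, so that the count was 2, against 9.74% of all genes lower. The median of the 32 was −0.14, against −0.02 over all genes, and 59.4% of them had both libraries of cluster 11 below both libraries of the other ML cells, against 33.1% of all genes, while 18.8% had both above, against 26.7%. *Ssr1* was at 60.8 and 64.9 against 92.1 and 94.5 CPM (−0.57), *Manf* at −0.41 and *Hsp90b1* at −0.40. In the other direction *Ddit3* was at 18.1 and 19.3 against 14.1 and 13.2 CPM (0.45) and *Herpud1* at 55 and 64.3 against 46.1 and 46.1 CPM (0.38). From the lists of other genes, *Psat1* (−2.17), *Mthfd2* (−1.20) and *Ddit4* (−0.75) were lower among the ATF4 targets, *Pdia5* (−0.95) among the chaperones and *Derl3* (−1.25, on 6 UMIs) among the degradation genes. Proliferating markers were lower in cluster 11 for 4 of 4 genes, and the dissociation genes were above in both libraries for 9 of 10. Of the 5 LP markers 2 were lower and past the fold, with a sum of 65.7 and 67.5 against 92.4 and 88.6 CPM. Of the 5 ML markers 1 was lower and past it, with a sum of 6622 and 6737 against 7521 and 7787 CPM. Of the 4 fibroblast markers 1 was past the fold upward, *Dcn*, at 33.5 and 37.5 against 10.45 and 8.02 CPM, and the other 3 were at most at 0.671 CPM in any of these libraries. Of the 5 basal markers 1 was past it, and their sum was 24.8 and 24.1 against 13.6 and 16.1 CPM. Their part in these values was not tested.

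The comparison of the mutant with WT within a class asks how luminal cells differ when they carry the V943R receptor. No gene of the 32 was past the fold in any class, in either direction, when all libraries and all their cells were used. Without the 10% of cells with the fewest UMIs, *Hyou1* was lower and past it in LP, against 0.72% of all genes lower. In LP cells 0 of the 31 genes with the minimum were higher, against 2.23% of 11219 genes, and 0 were lower, against 0.606%. In LI cells the counts were 0 of 31 in each direction, against 2.83% of 10525 genes higher and 1.03% lower. In ML cells outside cluster 11 they were 0 of 31, against 2.66% of 14792 genes higher and 1.04% lower. In cluster 11 they were 0 of 31, against 0.743% of 10223 genes higher and 3.17% lower. At these background shares a set of 32 genes would hold few such genes in any case. None of the genes of the other pathway lists was past the fold between genotypes in any of the 4 classes.

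Smaller differences leaned downward in the mutant, though not for every role. Both mutant libraries lay below both WT libraries for 11 of the 32 genes (34.4%) in LP, 16 (50%) in LI, 12 (37.5%) in ML outside cluster 11 and 17 (53.1%) in cluster 11, against 18.1%, 22.5%, 26.6% and 18.7% of all genes. Both lay above for 2, 4, 4 and 4 of the 32, against 23.1%, 23.2%, 25.4% and 24.9% of all genes. The median log2 ratios of the genes were −0.07, −0.08, −0.04 and −0.12, so that the shifts were small beside the fold. Without cluster 2 the median in LP was −0.0164, and with TMM factors the medians in LP and cluster 11 were −0.10 and −0.20. In LP 18 of the 32 genes were below 0 and 14 above. There the 10 chaperones had a median of −0.11, with 9 below 0, and the 9 translocon, signal peptidase and TRAP genes a median of 0.09, with 1 below 0. The 4 classes were taken from the same libraries and are not independent of each other.

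*Hspa5* was below in all 4 classes. It was at 289 and 250 CPM in LP of the mutant and at 330 and 306 CPM in LP of WT (−0.25, −0.33 to −0.17), and at 139 and 136 against 170 and 166 CPM in LI (−0.29, −0.41 to −0.17). In ML outside cluster 11 it was at 154 and 185 against 194 and 189 CPM (−0.17), and in cluster 11 at 143 and 140 against 181 and 157 CPM (−0.25). The mutant libraries differed from each other by as much as the genotypes in ML outside cluster 11. *Dnajc3* was at 97.7 and 108 against 127 and 126 CPM in LP (−0.29), and at −0.21, −0.10 and −0.16 in the other classes. *Herpud1* was at −0.25, −0.23, −0.18 and −0.17, *Atf4* at −0.14, −0.18, −0.08 and −0.22, and *Ssr4* at −0.07, −0.10, −0.10 and −0.18 over LP, LI, ML outside cluster 11 and cluster 11. These 5 were the genes of the 32 with both mutant libraries below both WT libraries in every class, which was so for 2.21% of the 9536 genes with the minimum in all 4 classes, and 0 of the 32 were above in every class, against 3.61%.

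**Figure D5:**
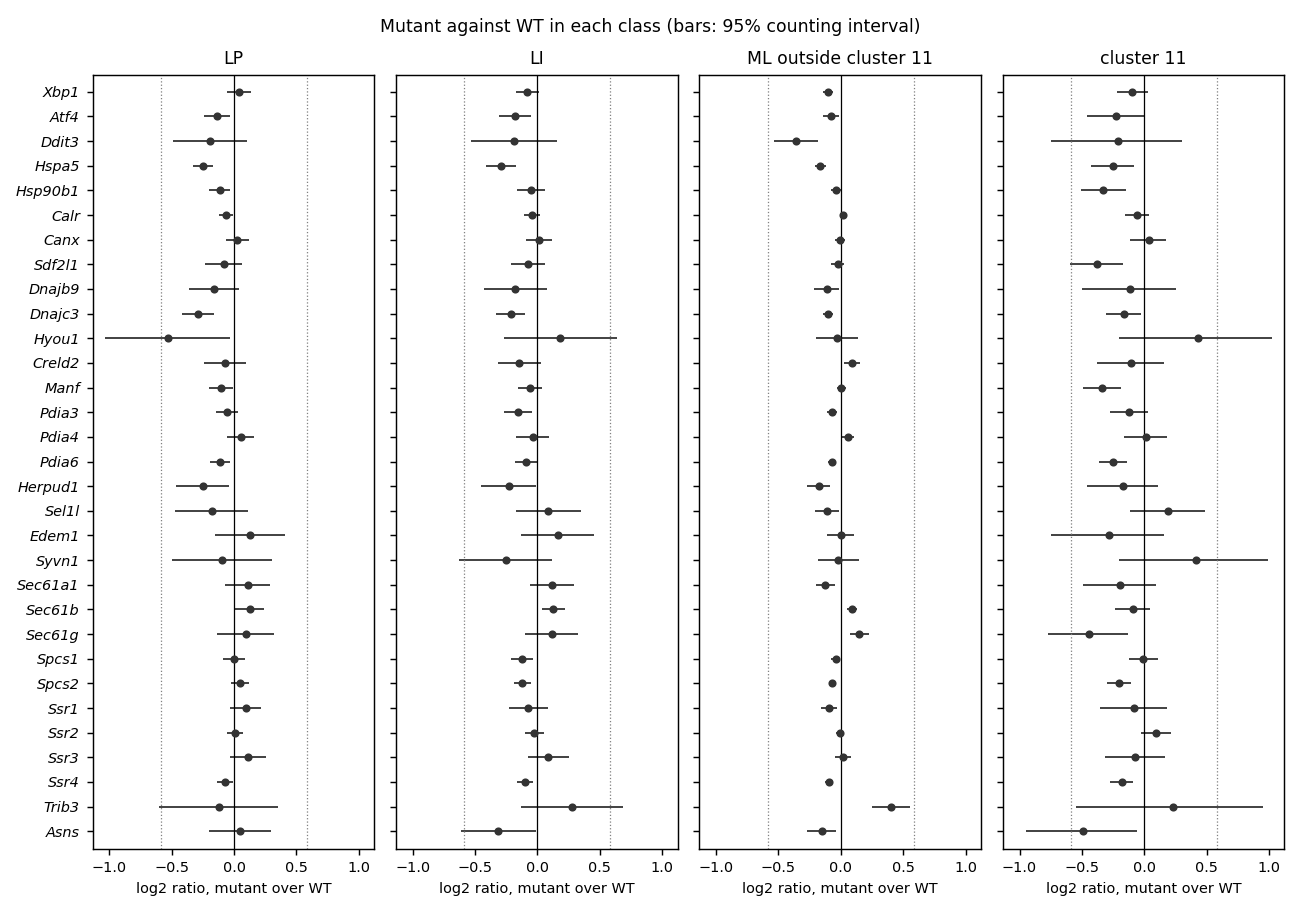
Log2 ratio of each gene's CPM, mutant over WT, in LP, LI, ML outside cluster 11 and cluster 11, with 95% counting intervals and without *Chac1*. All points lie between the dotted lines at a fold of 1.5, more of them to the left of 0 than to the right.

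Other genes were below in some classes. *Ddit3* was at 10.6 and 10.7 CPM in ML outside cluster 11 of the mutant and at 14.1 and 13.2 CPM in WT (−0.36, −0.53 to −0.18). In cluster 11 *Asns* was at 20.4 and 21.8 against 30.4 and 29.2 CPM (−0.49, −0.95 to −0.06), *Sec61g* at −0.44, *Sdf2l1* at −0.38, *Manf* at −0.34 and *Hsp90b1* at −0.33, and without mutant library A *Sec61g*, or without mutant library B *Dnajb9*, was past the fold. The mutant cluster held 2407631 UMIs against 9405963 in WT. *Hyou1* in LP was at 6.58 and 7.19 against 11.1 and 8.92 CPM (−0.53, −1.03 to −0.04), on 60 and 85 UMIs, and without mutant library B it was past the fold.

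The genes above were fewer. *Trib3* was at 19.0 and 17.1 CPM in ML outside cluster 11 of the mutant and at 13.4 and 13.8 CPM in WT (0.41, 0.25 to 0.56), and *Sec61b* was above in LP, LI and ML outside cluster 11, by 0.13, 0.13 and 0.09, and below in cluster 11 (−0.09). *Xbp1* differed by 0.04, −0.08, −0.10 and −0.10.

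The dissociation genes moved in the same direction between genotypes. Both mutant libraries were below both WT libraries for 9 of 10 of them in LP, 9 in LI, 7 in ML outside cluster 11 and 7 in cluster 11. The medians were −0.23, −0.35, −0.20 and −0.18. *Hspa1b*, a heat shock gene, was above, and it was past the fold in LP (0.60) and in LI (0.74). In LI the 4 proliferating markers were above in both mutant libraries, 1 of them past the fold, with a sum of 75.6 and 87.3 against 64.8 and 49.8 CPM, and 3 of the 5 LP markers were below in both, with a sum of 1625 and 1724 against 1892 and 2110 CPM. *Acta2* of the basal markers was also past the fold upward in LI (0.88), and *Cd74* of the immune markers in ML outside cluster 11 (0.84). *Dcn* of the fibroblast markers was lower in the mutant and past the fold in ML outside cluster 11 (−1.44) and in cluster 11 (−1.33). The dissociation genes summed to between 20200 and 20516 CPM in LP of the mutant and to between 24555 and 25561 CPM in LP of WT. The part of these genes in the lower levels of *Hspa5*, *Atf4* and the others was not tested.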

How the data were processed

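Luminal cells were sequenced as 2 droplet libraries from the WT pool and 2 from the mutant pool. The deposited values are a signal, the UMIs of a cell times a factor of that cell, and were given by the authors together with the library, cluster and class of each cell. Dividing by the smallest value of a cell returned whole numbers (100% of nonzero values, tolerance 0.02), which were used as UMIs. Processing notes of the submitters name CASAVA 1.8, bcl2fastq 2.20, GSNAP 2013-10-10 and the build GRCm38, with no role given, and the study's methods name Partek Flow, with a Seurat resolution of 0.6, for clustering. Whether counting used the strand is not given in the sources used here. Of the 32 genes, 13 overlap another annotated gene, 12 of them on the opposite strand. Reads of *Ddit3* and *Mars*, *Manf* and *Dcaf1*, and *Syvn1* and *Mrpl49* may thus be mixed. On the same strand, where use of the strand would not separate reads, 5 overlap another gene. Among these are *Manf* with *Rbm15b*, and *Hsp90b1* with *Gm15344*.

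UMIs were summed over cells and scaled to the total of those cells. The levels have exact Poisson and the log2 ratios exact conditional binomial 95% intervals. No model was fitted and no p-value was taken, since each genotype was 1 pool. The rule for the fold was 1.5 times, at least 50 UMIs and libraries not overlapping. The genes to be named were the 32 and, of each list of other pathway genes, the one with the largest log2 ratio of LP against ML in WT in each direction among those past the fold, with any past it between genotypes in a class. Other genes of these lists that were past the fold were named after their values were seen. Among the further targets of ATF4, the gene with the highest log2 ratio was not named. The genes, lists and comparisons were chosen with earlier results of these data known. Alternatives were leaving out each library, TMM factors (trimming 30% and 5%), totals without ribosomal protein genes, means over cells, no minimum of UMIs, no rule on libraries, a smaller fold (log2 of 0.32), and leaving out the 10% shallowest cells or the 6% with the highest doublet scores. The 6 comparisons between single clusters, and the settings without clusters 2, 5 and 6, were chosen after seeing the data. The doublet caller scrublet marked 1 of 32439 cells, too few for its calls to be used, so doublets were not removed, and its scores served only to rank the cells of a library. Thinning cells to 1000 UMIs left out 45 WT and 252 mutant cells. Promoters came from RefSeq and gene positions from the annotation of GRCm38. Tools were scanpy 1.11.5, scipy 1.17.1, numpy 2.4.6, matplotlib 3.10.9 and pandas 2.3.3 in Python 3.11.15, with a random seed of 1.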

Additional observations from a re-analysis of the deposited data

Results flagged for a closer look

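Some genes lay beyond WT in the mutant in both libraries in one class and on the other side of WT in both libraries of another class. None of these differences between classes was tested, and all rest on the same 4 libraries. *Hyou1* was lower in LP of the mutant, and its log2 ratio there was below that in LI by −0.71 and below that in cluster 11 by −0.96. It rested on under 100 UMIs on each side in these classes. *Sec61a1* was higher in LP and lower in the other ML cells and in cluster 11, with differences of 0.23 and 0.30 between the log2 ratios. For *Sec61b*, which was higher in every class but cluster 11, the log2 ratio exceeded that in cluster 11 by 0.22 in LP, by 0.22 in LI and by 0.18 in ML outside cluster 11. *Sel1l* was higher in cluster 11 and lower in LP and in ML outside cluster 11, with differences of −0.37 and −0.30.

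In LI, *Creld2* was lower in the mutant where it was higher in ML outside cluster 11, a difference of −0.24. *Edem1* was higher in LI and lower in cluster 11, a difference of 0.44, and *Syvn1* lower in LI and higher in cluster 11, a difference of −0.66 that rests on 33 UMIs in cluster 11 of the mutant. Between LP and ML, *Sec61a1* was lower in LP of WT and higher in LP of the mutant, a difference of −0.22, again untested.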

How the results depend on the processing

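Of the 54 pairs of a gene and a comparison past the fold, 40 were still past it with TMM factors, 53 with means over cells, 52 without the 10% of cells with the fewest UMIs, and 54 each without ribosomal protein genes and without the cells of highest doublet scores. Without 1 library it was 22 to 24 of the 26 or 28 pairs that held the library, and without clusters 2, 5 and 6 it was 22 of 26. In these settings 0 were reversed, and the shifts by TMM factors were too small to reverse any. A smaller fold, no minimum of UMIs and no rule on libraries cannot lose such a pair. TMM factors gave 13 genes past the fold in LP against ML of WT (37.4% of all genes). They gave 2 in cluster 11 (12.1%) and 3 in clusters 5 and 6 of WT (22.3%). The medians with them were −0.41 and −0.43 for LP against ML in WT and the mutant, and −0.10 and −0.20 for the mutant against WT in LP and cluster 11. They were 0.32 and 0.33 for cluster 2, 0.0119 and 0.08 for clusters 5 and 6, and 0.24 and 0.22 for cluster 10. A smaller fold, 0.32 on the log2 scale, gave 19 and 18 genes for LP against ML (52.9% and 55.1% of all genes), 9 for cluster 11 (25.0%), 1, 2 and 5 for the mutant against WT in LP, ML outside cluster 11 and cluster 11 (12.1%, 14.9% and 13.2%), 21 and 18 for cluster 2 (37.6% and 37.9%), 13 and 13 for clusters 5 and 6 (39.5% and 37.1%), 7 and 6 for cluster 10 (35.9% and 35.0%), and 0 for the mutant against WT in LI (15.7%). Means over cells gave 10 genes higher in cluster 2 of the mutant, where 10.4% of all genes were higher. No minimum of UMIs gave 9 (4.71% of all genes), against 6 as reported (8.2%). Means over cells gave medians of −0.18 and −0.16 for LP against ML, 0.44 for cluster 2 of WT and 0.21 for clusters 5 and 6 of the mutant. Without the 10% of cells with the fewest UMIs the medians were −0.0806 and −0.10 for LP against ML and 0.40 for cluster 2 of WT, and 1 gene, *Hyou1*, was past the fold between genotypes in LP. Without the cells of highest doublet scores they were −0.12 for LP against ML in the mutant, 0.45 for cluster 2 of WT and 0.22 for clusters 5 and 6 of the mutant, and without ribosomal protein genes −0.0869 for LP against ML in the mutant. Without clusters 2, 5 and 6 they were −0.19 and −0.15 for LP against ML, −0.0164 for the mutant against WT in LP, and 0.15 and 0.19 for cluster 10. Why these values moved was not tested.

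Leaving out 1 library gave 0 to 2 genes in cluster 11 of WT, against 11.4% to 12.1% of all genes. Between genotypes it gave 0 to 1 in LP, against 2.36% to 4.52%, and 0 to 1 in cluster 11, against 3.28% to 7.93%. In cluster 2 of the mutant it gave 5 to 9, against 19.7% to 21.3%. It gave medians of −0.16 to −0.14 and of −0.127 to −0.125 for LP against ML in WT and the mutant, −0.15 to −0.12 for cluster 11, −0.0686 to −0.0433 and −0.16 to −0.10 between genotypes in LP and cluster 11, 0.44 to 0.47 and 0.35 to 0.42 for cluster 2, and 0.15 to 0.17 for clusters 5 and 6 of the mutant. No paired analysis was possible because the libraries in the table carry no replicate number and no test was made. The genes with the fewest UMIs in all cells were *Chac1*, *Hyou1* and *Syvn1*, with 127, 1655 and 1802, and cluster 11 of the mutant held 2407631 UMIs in all, which limits the precision there.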

Other observations

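Cluster 13, rare cells outside the luminal classes with 83 cells in WT and 81 in the mutant, held high levels of antigen presentation genes, with *Cd74* at 14174 CPM in WT and 17522 CPM in the mutant. Markers of ML cells summed to 1643 and 3386 CPM in its WT libraries and to 2064 and 2687 CPM in its mutant libraries. The part of luminal RNA in the levels below was not tested. Plasma cell markers of the cluster were uneven between libraries, with sums of 2852 and 1515 CPM in WT and 4161 and 916 CPM in the mutant, *Igkc* at 1491 and 2200 CPM and *Mzb1* at 329 and 280 CPM in WT and the mutant, and *Tnfrsf17* at 0 in both. *Jchain* was at 26.2 and 29.7 CPM and *Sdc1* at 37.4 and 55.2 CPM in WT and the mutant. The level of *Sdf2l1* was 326 and 149 CPM in the WT libraries and 359 and 302 CPM in the mutant libraries, so that WT library A overlapped the mutant. *Herpud1* was at 138 CPM in WT and 174 CPM in the mutant. *Xbp1* was at 138 and 127 CPM, below every ML cluster of its genotype. *Spcs2* was at 355 and 416 CPM. The levels of these ER genes rest on 30 to 98 UMIs a genotype, with an additional 149 and 141 UMIs for *Calr*, at 557 and 599 CPM.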
